A study of Mus musculus with 10 samples.

Results

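The members described here are the mature 3p arms from the mouse cluster miR-290 to miR-295, taken by name from a table of read counts per mature miRNA. They are mmu-miR-290a-3p, mmu-miR-291a-3p, mmu-miR-291b-3p, mmu-miR-292a-3p, mmu-miR-292b-3p, mmu-miR-293-3p, mmu-miR-294-3p and mmu-miR-295-3p, 8 of 1907 entries in the table. Of the 8, 7 had counts and 1, miR-292b-3p, had none in any library. Small RNA was sequenced from E14 embryonic stem cells, a line from the blastocyst of 129/Ola mice, in 5 groups of 2 libraries. Dgcr8_KO cells lacked Dgcr8 and Drosha_KO cells lacked Drosha, Dicer_KO cells lacked Dicer, Ago12_KO cells lacked both Ago1 and Ago2, and WT cells were wild type. The labels say nothing of how each knockout was made, and the samples' descriptions give clone-like codes for the Dicer_KO libraries (C1 and H11) and passage-like codes for the WT libraries (P25 and P33). All groups carried the same strain background and were labelled as grown on gelatine with 15% serum and LIF at 100 U/mL. Where nothing says that 2 libraries came from separate cultures, a p-value measures the spread between the samples at hand alone, and that spread may be technical.

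The cluster is transcribed as 1 long RNA and is a hallmark of mouse embryonic stem cells, where its miRNAs make up much of the pool. Drosha with its partner Dgcr8, together the Microprocessor, cuts each hairpin out of the long transcript, Dicer then removes the loop to leave a duplex of a 5p and a 3p strand, and an Argonaute such as Ago1 or Ago2 keeps 1 strand. The 3p strands with AAGUGC near their start are known as embryonic stem cell cycle miRNAs. Through targets such as Cdkn1a, Rbl2 and Lats2 they ease entry into S phase, and in mouse fibroblasts they raise the yield of induced pluripotent cells.

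The mature sequences show which members can share targets, since the seed, bases 2 to 8 from the 5′ end, pairs with the target RNA. They are given 5′ to 3′ with the seed in capitals, from RefSeq on GRCm38.p6 (chromosome 7), whose table matched 7 of the 8 names. The name without a match was miR-292a-3p, so its seed and sequence enter none of the comparisons of seeds and edits.
miR-291a-3p: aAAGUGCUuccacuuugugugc
miR-294-3p: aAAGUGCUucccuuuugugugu
miR-295-3p: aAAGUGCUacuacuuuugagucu
miR-290a-3p: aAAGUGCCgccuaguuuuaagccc
miR-291b-3p: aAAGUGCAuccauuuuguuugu
miR-293-3p: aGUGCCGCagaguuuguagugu
miR-292b-3p: aAGAGCCCccaguuugaguau

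The seed AAGUGCU was shared by 3 members, miR-291a-3p, miR-294-3p and miR-295-3p. miR-290a-3p and miR-291b-3p each differed from them at the last base of the seed only. In these 5 members AGUGC began at base 3, in miR-293-3p it began at base 1, so that its seed was another, and miR-292b-3p did not hold it. Counted as edits between whole sequences, miR-294-3p was 3 edits from miR-291a-3p, 3 from miR-291b-3p and 5 from miR-295-3p. The nearest mature sequence outside the cluster was miR-302d-3p, 4 edits from miR-294-3p. Whether a read that matches several miRNAs was counted for each of them is not given.

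The hairpins lie within chr7:3218626-3220841 of GRCm38.p6, on the plus strand apart from those of miR-290b and miR-292b. The hairpin of miR-290a holds that of miR-290b on the other strand and overlaps no GENCODE M21 gene outside the cluster. Those of miR-291a to miR-295 overlap an exon of Nlrp12, a gene on the minus strand. The hairpin of miR-292b lies on the strand of Nlrp12 and opposite that of miR-292a, the others lie opposite Nlrp12, and the 3p strand of miR-292b covers chr7:3219198-3219218. Of the hairpins whose balance of strands shifted in Dicer_KO, 3 are given 5′ to 3′ with the 3p arm in capitals: that of miR-290a, the only one that shifted towards 3p, that of miR-295, with the largest shift towards 5p, and that of miR-293, whose 3p seed is out of register with the others.
Mir290a: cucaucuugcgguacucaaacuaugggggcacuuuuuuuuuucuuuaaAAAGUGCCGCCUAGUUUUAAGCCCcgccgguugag
Mir293: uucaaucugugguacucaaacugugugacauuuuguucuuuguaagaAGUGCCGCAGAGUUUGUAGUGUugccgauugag
Mir295: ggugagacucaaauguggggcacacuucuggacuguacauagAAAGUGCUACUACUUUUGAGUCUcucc

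Library totals ran from 37476 to 45222 counts in Dicer_KO and Drosha_KO, from 229407 to 408654 in Dgcr8_KO and Ago12_KO, and were 2357868 and 1943868 in WT. The totals cover miRNA entries alone, so fewer reads sequenced and fewer miRNAs per cell cannot be told apart, nor can fewer cells of a type and less RNA per cell. Levels are therefore given as counts per 1000000 miRNA counts (CPM) and are shares of the counted miRNAs, not amounts per cell. Over the members, replicates differed by more than counting error: chi-square divided by its degrees of freedom lay between 4.48 in Drosha_KO and 51.0 in Ago12_KO. The descriptions of the Dgcr8_KO and Ago12_KO samples begin with codes that look like dates and those of the other groups do not; what the codes mark is not given, and it cannot be told apart from the group. The mRNAs of the deleted genes were not measured, so the labels were not checked on them. Among other miRNA markers of embryonic stem cells, all 5 listed members of the miR-302 and miR-367 cluster, each a 3p arm, had counts in some library. They summed to only 44.8 to 48.8 CPM in WT, where miR-302c-3p was at 0. In the knockouts they summed to 10.4 to 14.7 CPM in Dgcr8_KO, 0 to 24.8 CPM in Drosha_KO, 0 CPM in Dicer_KO and 144 to 203 CPM in Ago12_KO. In Drosha_KO and Dicer_KO 3 counts are 66.3 to 80.1 CPM, above the WT sum, so a lower level cannot be told there. Of the 5p arms, not on the list, miR-302a-5p averaged 75.5 CPM in Dicer_KO and 67.0 CPM in Ago12_KO, against 4.22 CPM in WT. miR-302d-5p averaged 22.1 and 12.2 CPM against 1.20 CPM. miR-302b-5p and miR-367-5p had no read in any library, and miR-302c-5p none in the knockouts. A list of fibroblast or feeder miRNAs, 6 of 7 with counts and miR-214-3p at 0, summed to between 1305 and 18474 CPM in knockout libraries and to 24699 and 28316 CPM in WT. Neural markers summed to between 213 and 3176 CPM in knockout libraries and to 2976 and 3211 CPM in WT, and muscle markers to at most 9.79 CPM in any library, with miR-1a-3p and miR-206-3p at 0.

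Together the 3p arms held 10.4% ± 0.151 of the counts in Dgcr8_KO, 12.3% ± 0.660 in Drosha_KO, 1.08% ± 0.108 in Dicer_KO, 6.84% ± 0.573 in Ago12_KO and 14.2% ± 0.789 in WT (SD, n = 2 each). Both libraries of every knockout group lay below both of WT, by the largest margin in Dicer_KO. An exact two-sided permutation test of 2 against 2 libraries cannot go below p = 0.333, which is the value it gave for each knockout group.

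miR-295-3p was the most abundant member in WT and, by mean CPM, ranked 3 among all miRNAs in Dgcr8_KO and also in WT. Its level was 61584 and 58680 CPM in Dgcr8_KO and 27359 and 26051 CPM in Drosha_KO. It was 4644 and 6698 CPM in Dicer_KO and 42025 and 33752 CPM in Ago12_KO, against 98301 and 104755 CPM in WT. The order was thus WT, Dgcr8_KO, Ago12_KO, Drosha_KO and Dicer_KO from high to low, and no 2 neighbours in it overlapped.

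miR-294-3p and miR-291a-3p, which carry the same seed, followed another order, highest in Drosha_KO. miR-294-3p stood at 21773 and 22672 CPM in Dgcr8_KO, 38217 and 36322 CPM in Drosha_KO, 575 and 1227 CPM in Dicer_KO, 6338 and 5078 CPM in Ago12_KO, and 11797 and 13139 CPM in WT. miR-291a-3p stood at 9463 and 9512 CPM in Dgcr8_KO, 28827 and 22627 CPM in Drosha_KO, 265 and 400 CPM in Dicer_KO, 3547 and 3836 CPM in Ago12_KO, and 4302 and 4548 CPM in WT. For both, the order was Drosha_KO, Dgcr8_KO, WT, Ago12_KO and Dicer_KO, again with no overlap between neighbours. In Dicer_KO the libraries held 12 and 15 reads of miR-291a-3p and 26 and 46 of miR-294-3p, so counting error is largest there.

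miR-292a-3p was also highest in Drosha_KO, but second in Ago12_KO. It measured 10095 and 9710 CPM in Dgcr8_KO, 28043 and 27266 CPM in Drosha_KO, 907 and 720 CPM in Dicer_KO, 16985 and 18142 CPM in Ago12_KO, and 12065 and 14177 CPM in WT. No groups overlapped, with Dgcr8_KO just below WT and Dicer_KO lowest.

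miR-293-3p, whose seed is shifted against those with AGUGC from base 3, was the only member that was lowest in Dgcr8_KO among those with at least 10 reads in every library. It measured 124 and 144 CPM in Dgcr8_KO, 886 and 868 CPM in Drosha_KO, 752 and 774 CPM in Dicer_KO, 2007 and 2698 CPM in Ago12_KO, and 9743 and 10455 CPM in WT. The groups did not overlap, although Drosha_KO and Dicer_KO lay close together on 35 and 35 reads and on 34 and 29 reads.

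miR-290a-3p was the only member with counts that was lowest in WT. It measured 1817 and 2007 CPM in Dgcr8_KO, 4050 and 4888 CPM in Drosha_KO, 2853 and 1681 CPM in Dicer_KO, 1589 and 872 CPM in Ago12_KO, and 282 and 557 CPM in WT. The Dgcr8_KO libraries lay within the range of the Dicer_KO libraries, and the other groups did not overlap. Its 2 WT libraries also differed by a larger ratio than those of any other member with counts.

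miR-291b-3p was close to the detection limit outside WT. It had 2 and 2 reads in Dgcr8_KO, 1 and 2 reads in Drosha_KO, 0 and 1 reads in Dicer_KO and 1 and 3 reads in Ago12_KO, against 325 and 298 reads in WT, where its level was 138 and 153 CPM. In CPM pooled over both libraries, Dgcr8_KO held 3.96% of the WT level (95% exact interval 1.07 to 10.2), Drosha_KO 26.0% (5.34 to 76.2), Dicer_KO 8.35% (0.211 to 46.7) and Ago12_KO 4.77% (1.30 to 12.3). These intervals pool the reads of both libraries and cover counting error only. Replicates of the members differed by more than that, so no call is read from the intervals. miR-292b-3p had 0 reads in all 10 libraries, which allows up to 1.27 and 1.54 CPM in WT and up to 80.1 CPM in the shallowest Dicer_KO library (3 counts per library). Its hairpin left 2 and 1 reads of the 5p arm in WT.

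**Figure D1:**
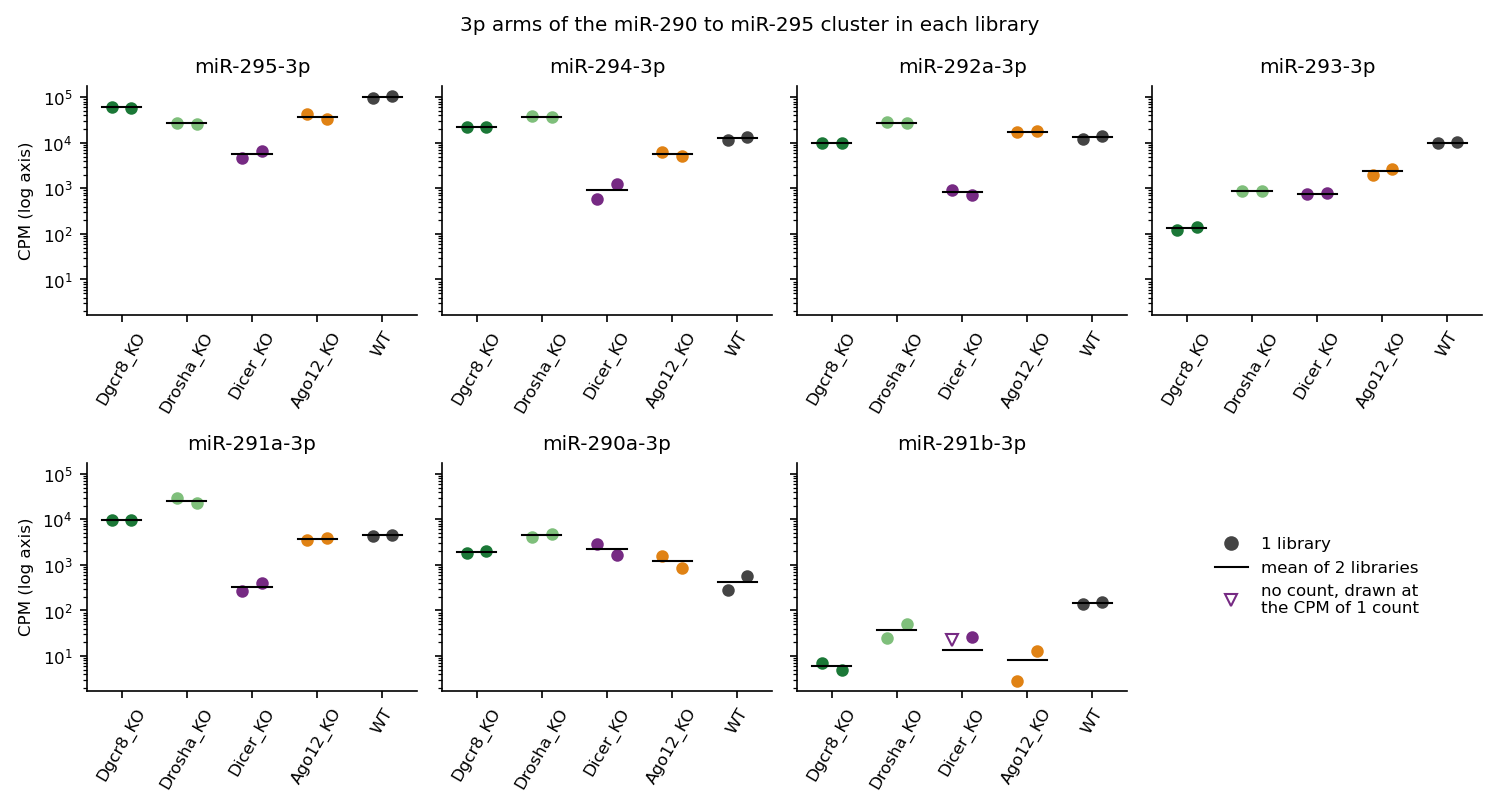
Level of each 3p arm with counts in the 5 groups, in CPM on a log axis; points are libraries, lines the mean of 2, and open triangles mark a library with no read, drawn at the CPM of 1 read. miR-290a-3p is lowest in WT, miR-293-3p is lowest in Dgcr8_KO, and miR-291a-3p, miR-292a-3p and miR-294-3p are highest in Drosha_KO.

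Since the sum and the members moved apart, the make-up of the 3p sum differed between groups. miR-295-3p made up 57.9% ± 1.14 of the sum in Dgcr8_KO, 21.8% ± 0.417 in Drosha_KO, 52.3% ± 8.23 in Dicer_KO, 55.2% ± 3.93 in Ago12_KO and 71.4% ± 0.753 in WT (SD, n = 2 each). In Drosha_KO no single member led by a wide margin: miR-294-3p took 30.4% ± 0.542, miR-292a-3p 22.6% ± 0.766, miR-295-3p 21.8% ± 0.417 and miR-291a-3p 20.9% ± 2.45 of the sum. In Ago12_KO miR-292a-3p took 25.8% ± 3.36 of the sum, against 9.21% ± 0.539 in WT.

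The ratio of miR-294-3p to miR-295-3p, 2 strands with the same seed and nearby hairpins, does not depend on the library total. It was 0.354 and 0.386 for Dgcr8_KO, 1.40 and 1.39 for Drosha_KO, 0.124 and 0.183 for Dicer_KO, 0.151 and 0.150 for Ago12_KO, and 0.120 and 0.125 for WT. Drosha_KO was the only group in which miR-294-3p outnumbered miR-295-3p. The Dicer_KO libraries spanned the values of Ago12_KO and overlapped those of WT.

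In Dicer_KO miR-290a-3p took 21.6% ± 9.87 of the sum, against 0.292% ± 0.120 in WT (SD, n = 2 each). The Dicer_KO libraries differed from each other, with 28.5% in the first (95% Clopper-Pearson interval 24.4 to 32.9) and 14.6% in the second (11.4 to 18.3), so the intervals did not overlap. miR-293-3p kept a similar place in both, 7.12% ± 0.572 of the sum in Dicer_KO and 7.10% ± 0.0399 in WT, but took 0.130% ± 0.0155 in Dgcr8_KO and 0.715% ± 0.0284 in Drosha_KO.

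**Figure D2:**
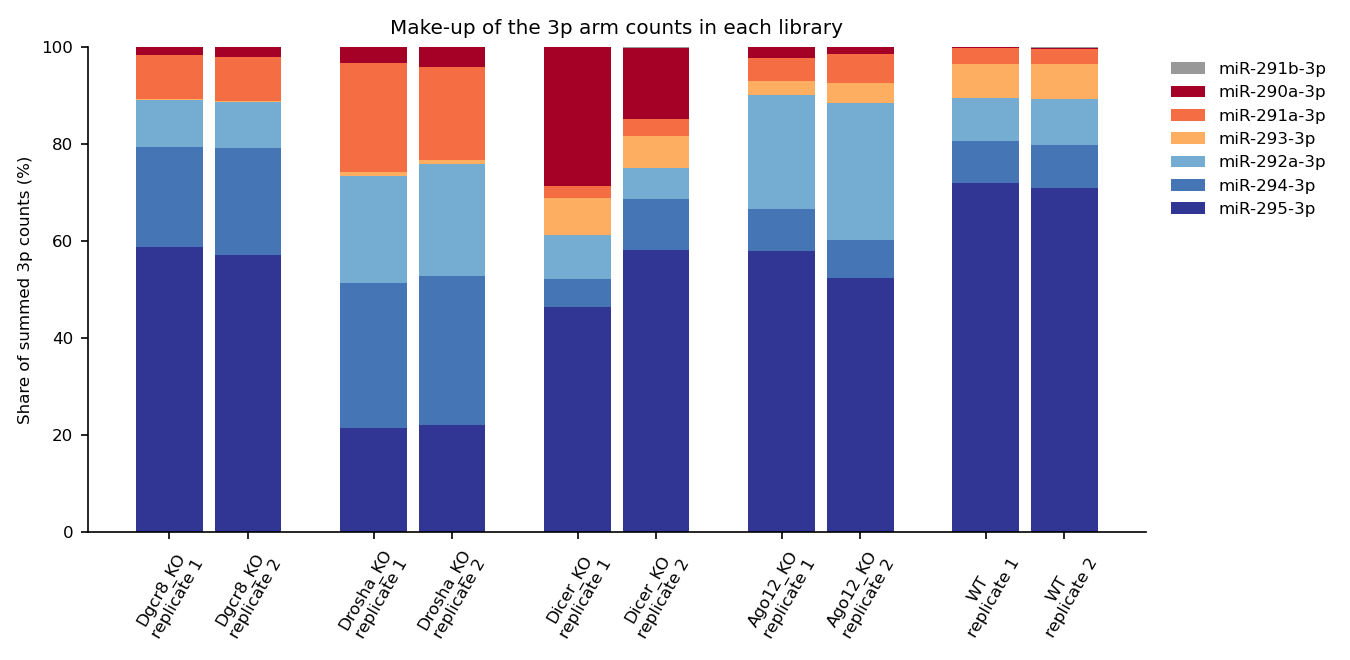
Share of each member in the summed counts of the 3p arms, in percent, with 1 stacked bar per library. The bar of miR-295-3p is shortest in Drosha_KO (21.8% on average), and miR-290a-3p is visible mainly in Dicer_KO (28.5% and 14.6%).

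Summed over the 3 members with the seed AAGUGCU, the seed made up 9.18% ± 0.138 of all counts in Dgcr8_KO, 8.97% ± 0.665 in Drosha_KO, 0.690% ± 0.201 in Dicer_KO, 4.73% ± 0.654 in Ago12_KO and 11.8% ± 0.569 in WT (SD, n = 2 each). Within the 3p sum it held 88.5% ± 0.0465 in Dgcr8_KO, 73.0% ± 1.49 in Drosha_KO, 63.5% ± 12.3 in Dicer_KO, 68.9% ± 3.78 in Ago12_KO and 83.3% ± 0.622 in WT. Dgcr8_KO was thus the only group in which the seed held more of the sum than in WT, although it held less of all counts.

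Each knockout was next compared with WT by edgeR's quasi-likelihood test on the counts, with Benjamini-Hochberg adjustment over the 481 entries that passed the filter on low counts; an adjusted p under 0.05 made a call. Of the 8 members 7 passed. miR-291b-3p passed only through WT, the group where it is high, so it had to differ, and its levels are given above with no call, count or median. The 6 others exceeded the minimum in every library. The 4 comparisons share the WT libraries, so they are not independent of each other. Fold changes are log2 ratios of CPM, knockout over WT.

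In Dgcr8_KO the members moved in both directions. miR-290a-3p, miR-291a-3p and miR-294-3p were higher than in WT, and miR-293-3p and miR-295-3p were lower. The lowest was miR-293-3p, which fell by 6.23 on the log2 scale (SE 0.34, edgeR adjusted p = 4.04e-07), a 74.9-fold difference. miR-290a-3p rose by 2.19 (SE 0.43, edgeR adjusted p = 8.33e-04) and miR-291a-3p by 1.10 (SE 0.27, edgeR adjusted p = 0.00375). miR-292a-3p was at -0.41 (SE 0.25, edgeR adjusted p = 0.156) and made no call, although both of its Dgcr8_KO libraries lay below both WT libraries.

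With column totals, 3 of 6 members were called higher and 2 lower in Dgcr8_KO, beside 32.4% of all 481 entries called higher and 41% called lower. Without any scaling 0 members were higher and 5 lower, beside 10.6% and 68.4% of all entries. The median with column totals was 0.21 over the members and -0.41 over all entries tested. The 2 smallest changes that were called, miR-294-3p at 0.83 (SE 0.32, edgeR adjusted p = 0.0347) and miR-295-3p at -0.76 (SE 0.24, edgeR adjusted p = 0.0140), depended on the libraries and the scaling. miR-294-3p was not called under TMM (edgeR adjusted p = 0.212, range over the alternatives 7.05e-06 to 0.212) or without either library of Dgcr8_KO or of WT (0.0845 to 0.144). The miR-295-3p call was lost with DESeq2 size factors (edgeR adjusted p = 0.0542, range 6.60e-07 to 0.0979), without either Dgcr8_KO library (0.0729 and 0.0979) or without WT replicate 2 (0.0644), while miR-292a-3p became a call under TMM (0.0210, range 6.45e-05 to 0.471), with DESeq2 on column totals (0.0104) and with only the groups compared (0.00498). Blood markers, 5 of 6 with counts there, summed to 4725 to 4780 CPM in Dgcr8_KO against 1354 to 1765 CPM in WT. miR-142a-5p (mean 3868 against 415 CPM) and miR-142a-3p (340 against 76.3 CPM) were higher in Dgcr8_KO. miR-150-5p was lower (540 against 1066 CPM), and the other blood markers averaged at most 3.45 CPM in either group. Markers of liver, gut and endoderm summed to 104 to 157 CPM in Dgcr8_KO against 1533 to 1590 CPM in WT. For neither list was its part in the members' values tested.

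In Drosha_KO, which lacks the catalytic subunit of the Microprocessor, 4 of 6 members were higher than in WT and 2 were lower. miR-290a-3p rose by 3.41 (SE 0.45, edgeR adjusted p = 6.56e-05) and miR-291a-3p by 2.54 (SE 0.29, edgeR adjusted p = 2.14e-05). The rise was 1.58 for miR-294-3p (SE 0.33, edgeR adjusted p = 0.00156) and 1.08 for miR-292a-3p (SE 0.25, edgeR adjusted p = 0.00316). miR-293-3p fell by 3.53 (SE 0.31, edgeR adjusted p = 3.67e-06) and miR-295-3p fell by 1.93 (SE 0.24, edgeR adjusted p = 4.85e-05). Of all entries 26.2% were called higher and 31.6% lower. Without scaling 0 members were higher and 6 lower, beside 5 and 399 of the 481 entries. The median with column totals was 1.33 over the members and -0.87 over all entries tested.

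Of these calls, that of miR-292a-3p was lost under TMM (edgeR adjusted p = 0.120, range over the alternatives 8.80e-12 to 0.120) and with DESeq2 size factors (0.0572). The Drosha_KO libraries also differed outside the cluster: 111 imprinted entries on chromosome 12 had 6 counts in the first and 4388 in the second, or 0.0152% and 10.9% of the library. The part of that difference in the members' values was not tested beyond leaving out each library, which kept the calls of all 6 members. Blood markers, 3 of 6 with counts there, summed to 3498 to 5644 CPM in Drosha_KO against 1354 to 1765 CPM in WT, and their part was not tested either.

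In Dicer_KO 5 of 6 members were lower than in WT, and miR-290a-3p was higher. miR-295-3p fell by 4.16 (SE 0.27, edgeR adjusted p = 5.00e-07), or 17.9-fold, and miR-292a-3p fell by 4.01 (SE 0.29, edgeR adjusted p = 8.29e-07). miR-294-3p fell by 3.80 (SE 0.37, edgeR adjusted p = 6.04e-06), miR-291a-3p fell by 3.74 (SE 0.32, edgeR adjusted p = 2.93e-06) and miR-293-3p fell by 3.73 (SE 0.31, edgeR adjusted p = 2.44e-06). Both Dicer_KO libraries lay below both WT libraries for each of these 5 members. miR-290a-3p rose by 2.44 (SE 0.44, edgeR adjusted p = 6.57e-04), a 5.42-fold difference.

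The count was 1 of 6 members higher and 5 lower, beside 13.3% and 42.6% of all entries. Without scaling miR-290a-3p was also lower, so 0 were higher and 6 lower, beside 1.25% and 89.2% of all entries. The median with column totals was -3.77 over the members and -2.78 over all entries. In Dicer_KO 5 entries that resemble fragments of other RNAs held 48.5% and 46.9% of the counts, against 0.464% and 0.354% in WT. With these left out of the totals, the members' share of counts was 2.06% in Dicer_KO and the 6 members kept their calls. Without Dicer_KO replicate 2 miR-294-3p fell by 4.44. The sum of the fibroblast or feeder list also stood low in Dicer_KO, at 1305 to 1334 CPM against 24699 to 28316 CPM in WT. The WT sum was mostly miR-22-3p, which averaged 23468 CPM there against 696 CPM in Dicer_KO. miR-143-3p averaged 226 CPM in Dicer_KO against 2851 CPM in WT. Alone of the list, miR-10b-5p was higher in Dicer_KO, at 359 CPM against 59.8 CPM. The list's part in the members' values was not tested.

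In Ago12_KO, where 2 Argonautes that hold mature strands are missing, 3 members were lower than in WT, 1 was higher and 2 made no call. miR-293-3p fell by 2.10 (SE 0.28, edgeR adjusted p = 1.22e-04), miR-295-3p fell by 1.42 (SE 0.24, edgeR adjusted p = 4.76e-04) and miR-294-3p fell by 1.13 (SE 0.32, edgeR adjusted p = 0.0117). miR-290a-3p rose by 1.56 (SE 0.42, edgeR adjusted p = 0.00864). miR-291a-3p at -0.26 (SE 0.27, edgeR adjusted p = 0.427) and miR-292a-3p at 0.42 (SE 0.25, edgeR adjusted p = 0.168) made no call. For miR-291a-3p and miR-292a-3p the groups did not overlap, yet each difference was below 2 standard errors.

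With column totals, 1 of 6 members was called higher and 3 lower in Ago12_KO, beside 28.7% of all entries called higher and 25.8% lower. Without scaling 0 members were higher and 5 lower, beside 3.33% and 69.9% of all entries. The median with column totals was -0.69 over the members and -0.02 over all entries. The rise of miR-290a-3p was lost under TMM (edgeR adjusted p = 0.0677, range over the alternatives 3.15e-04 to 0.102), without Ago12_KO replicate 1 (0.0801) and without WT replicate 1 (0.102). The miR-294-3p call was lost without Ago12_KO replicate 2 (edgeR adjusted p = 0.0706, the highest of a range from 1.74e-05) or WT replicate 2 (0.0591). Under TMM miR-291a-3p was called lower (edgeR adjusted p = 0.0188, range 5.42e-05 to 0.825) and miR-292a-3p changed sign to -0.23 without a call. Markers of liver, gut and endoderm summed to 6610 to 11565 CPM in Ago12_KO against 1533 to 1590 CPM in WT. That sum was nearly all miR-192-5p, which averaged 9008 CPM in Ago12_KO against 1375 CPM in WT, while miR-194-5p averaged 79.6 CPM against 186 CPM and miR-122-5p was at 0 in both. Blood markers, 3 of 6 with counts there, summed to 8660 to 11290 CPM in Ago12_KO against 1354 to 1765 CPM in WT, with miR-223-3p, miR-451a and miR-144-3p at 0 in Ago12_KO. The part of both lists in the members' values was not tested.

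**Figure D3:**
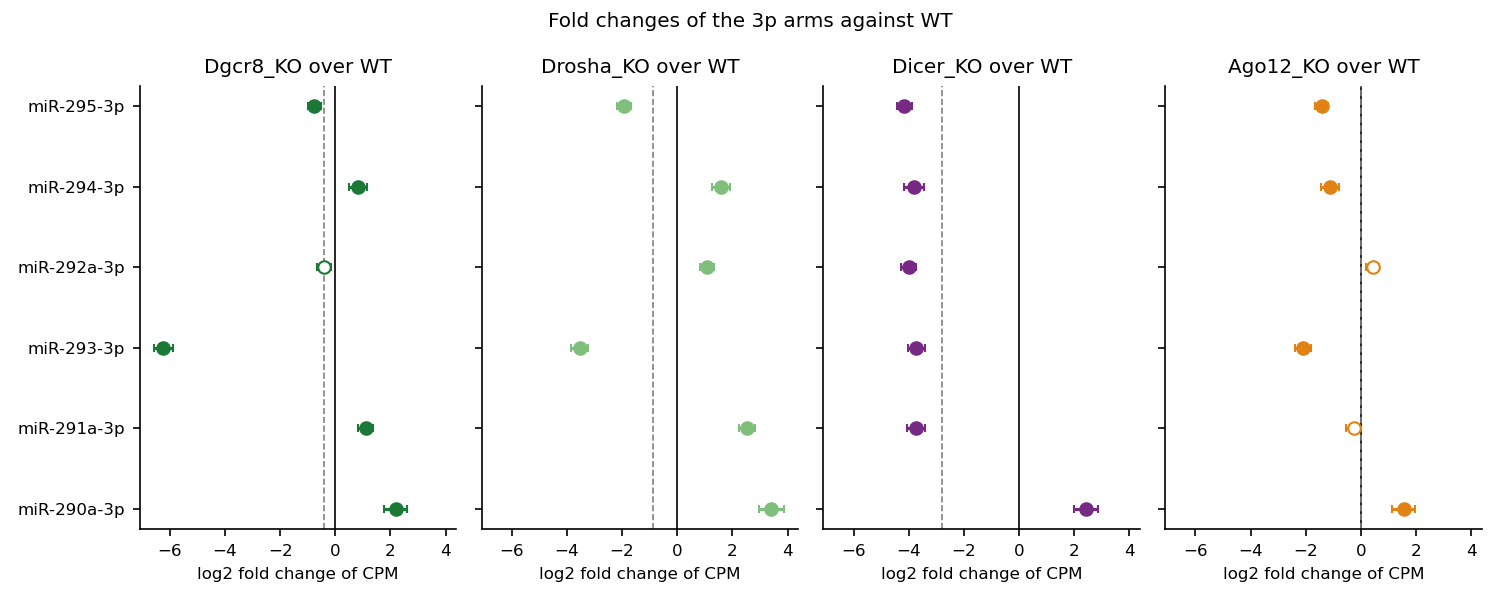
Log2 fold change of the 6 members over the count minimum in every library, in each knockout over WT, with SE bars; filled points were called by edgeR at an adjusted p under 0.05, open points were not, and the dashed line is the median of all 481 entries. With column totals miR-290a-3p lies above 0 in all 4 comparisons and miR-293-3p below 0; without scaling miR-290a-3p turns negative in all 4.

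The 2 Microprocessor knockouts were also set against each other. In Dgcr8_KO against Drosha_KO, 1 of 6 members was called higher, miR-295-3p at 1.17 (SE 0.24, edgeR adjusted p = 0.00686), and 3 were called lower. These were miR-293-3p at -2.70 (SE 0.31, edgeR adjusted p = 1.88e-04), miR-292a-3p at -1.48 (SE 0.25, edgeR adjusted p = 0.00262) and miR-291a-3p at -1.44 (SE 0.28, edgeR adjusted p = 0.00526). miR-290a-3p at -1.22 (SE 0.42, edgeR adjusted p = 0.0782) and miR-294-3p at -0.75 (SE 0.32, edgeR adjusted p = 0.154) made no call. Of all entries 5.61% were called higher and 8.32% lower. The median was -1.33 over the members and 0.13 over all entries. Without scaling 5 members were higher and 0 lower in Dgcr8_KO, beside 72.3% and 1.04% of all entries, and the median was 1.80 over the members and 3.07 over all entries, so the members' median was below that of all entries in both. Calls also depended on single libraries: without Dgcr8_KO replicate 2 only miR-293-3p remained lower and 0 members were higher, and without Dgcr8_KO replicate 1 the calls of miR-295-3p (edgeR adjusted p = 0.0664, the highest of a range from 1.49e-09) and miR-291a-3p (0.0764, range 7.56e-13 to 0.0776) were lost.

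Dicer_KO was set against Drosha_KO, which have library totals of the same order. By edgeR, 4 of 6 members were lower in Dicer_KO and 0 were higher (0 also at an unadjusted p under 0.05), beside 30.4% lower and 13.5% higher among all entries. DESeq2 gave 0 higher on column totals, beside 13.9% of all entries, and 1 with its own size factors, beside 23.3%. The log2 difference was -6.28 for miR-291a-3p (SE 0.35, edgeR adjusted p = 2.31e-07), -5.38 for miR-294-3p (SE 0.39, edgeR adjusted p = 1.01e-06), -5.08 for miR-292a-3p (SE 0.30, edgeR adjusted p = 2.85e-07) and, for miR-295-3p, -2.24 (SE 0.25, edgeR adjusted p = 2.67e-05). miR-293-3p was close to even, at -0.20 (SE 0.31, edgeR adjusted p = 0.622), on 63 reads over the Dicer_KO libraries and 70 over the Drosha_KO libraries. With DESeq2 size factors in edgeR it was called higher in Dicer_KO (0.96, edgeR adjusted p = 0.0352, range over the alternatives 0.0137 to 1.00). miR-290a-3p (-0.98, SE 0.43, edgeR adjusted p = 0.0869) was not called either. The median was -3.66 over the members and -1.03 over all entries.

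Each 3p count was then set against the 5p count of the same hairpin, a ratio that does not depend on the library total. In WT the 3p strand led by far in miR-295 and miR-294, the strands of miR-293 were nearly even, and the 5p strand led in the other hairpins. The 3p to 5p ratio of miR-295 was 175 and 171 for Dgcr8_KO, 60.1 and 105 for Drosha_KO, 0.550 and 1.07 for Dicer_KO, 39.0 and 48.1 for Ago12_KO, and 172 and 192 for WT. Its Drosha_KO ratios rest on 18 and 10 reads of the 5p arm. The ratio of miR-294 was 35.0 and 41.5 for Dgcr8_KO, 34.3 and 34.0 for Drosha_KO, 0.531 and 1.70 for Dicer_KO, 9.67 and 13.1 for Ago12_KO, and 37.6 and 35.5 for WT. The strong excess of the 3p strand of both hairpins in WT was thus close to even in Dicer_KO and smaller in Ago12_KO.

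miR-290a went the other way. Its 3p to 5p ratio was 0.831 and 0.943 for Dgcr8_KO, 0.374 and 0.416 for Drosha_KO, 9.92 and 10.5 for Dicer_KO, 5.14 and 2.74 for Ago12_KO, and 0.233 and 0.442 for WT. The 5p strand led in WT and the 3p strand in both Dicer_KO and Ago12_KO libraries. The Dicer_KO ratios of miR-290a rest on 13 and 6 reads of the 5p arm. The ratio of miR-293 was 0.554 and 0.513 for Dgcr8_KO, 0.593 and 0.897 for Drosha_KO, 0.0704 and 0.0892 for Dicer_KO, 0.222 and 0.250 for Ago12_KO, and 0.945 and 0.939 for WT. Every knockout library lay below both WT libraries, the Dicer_KO ones lowest. The ratios of miR-291a and miR-292a were below 1 in every library, from 0.111 to 0.732 and from 0.273 to 0.969. The ratio of miR-291b was at most 0.0769 in the knockout libraries and was 0.266 and 0.279 in WT.

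The difference of log2 ratios, knockout minus WT, was tested with limma, without weighting by reads. A hairpin thus has the same SE in every comparison, however few reads a ratio rests on. The test covered the 84 hairpins that had a mean of at least 20 counts in each arm, 7 of them in the cluster. The hairpin of miR-291b met that minimum only through WT, where its 3p count is high, so a lower ratio in the knockouts was set by the choice of hairpins, and no call is read from it. It stays among the 84 in the shares and medians given for all hairpins. Of the 6 others, 4 had shifted in Dicer_KO towards the 5p arm and 1 towards the 3p arm, beside 26.2% and 22.6% of the 84. The shift was -7.89 for miR-295 (SE 0.48, limma adjusted p = 1.57e-05), -5.26 for miR-294 (SE 0.56, limma adjusted p = 2.30e-04), -3.55 for miR-293 (SE 0.40, limma adjusted p = 3.00e-04) and 4.92 for miR-290a (SE 0.49, limma adjusted p = 2.20e-04). The median was -2.38 over the 6 cluster hairpins and 0.01 over all 84. A smaller shift of miR-291a (-1.21, SE 0.44, limma adjusted p = 0.0486) was called too, and miR-292a (-0.90, SE 0.38, limma adjusted p = 0.0806) was not. miR-291a lost its call without Dicer_KO replicate 1, without either library of WT, Dgcr8_KO or Ago12_KO and with the replicate block (limma adjusted p = 0.0810, range over the alternatives 0.0196 to 0.188). miR-292a was called with a pseudocount of 2 (limma adjusted p = 0.0361) and without either Drosha_KO library (0.0487). The shift of miR-294 was -4.43 without Dicer_KO replicate 1 and -6.09 without Dicer_KO replicate 2.

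The 5p counts in Dicer_KO were compared with WT in the same edgeR fit. miR-295-5p had 8447 and 6244 CPM in Dicer_KO against 570 and 546 CPM in WT, and rose by 3.72 (SE 0.37, edgeR adjusted p = 6.77e-06). miR-290a-5p had 287 and 160 CPM in Dicer_KO against 1213 and 1260 CPM in WT, and fell by 2.44 (SE 0.34, edgeR adjusted p = 1.07e-04). miR-294-5p was higher too, with 1084 and 720 CPM in Dicer_KO against 314 and 370 CPM in WT. Its log2 ratio of 1.41 had an edgeR adjusted p of 0.00544, and not every alternative kept that under 0.05. With column totals the 2 arms of miR-295, of miR-294 and of miR-290a thus moved in opposite directions in Dicer_KO. miR-293-5p was at -0.15 (SE 0.29, edgeR adjusted p = 0.684) as its 3p arm fell. For miR-291a and miR-292a both arms were lower, with the 5p arms at -2.50 and -3.10. In raw reads, where the lower totals remain, miR-295-5p had 382 and 234 in Dicer_KO against 1344 and 1062 in WT, and so was lower. The same held for miR-294-5p, with 49 and 27 reads in Dicer_KO against 740 and 719 in WT.

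In Ago12_KO 3 of the 6 hairpins had shifted towards the 5p arm and 1 towards the 3p arm, beside 16.7% and 25% of the 84. miR-290a shifted by 3.54 (SE 0.49, limma adjusted p = 0.00182), miR-295 by -2.07 (SE 0.48, limma adjusted p = 0.00851), miR-293 by -2.00 (SE 0.40, limma adjusted p = 0.00432) and miR-294 by -1.70 (SE 0.56, limma adjusted p = 0.0407). The median was -0.82 over the 6 cluster hairpins and 0.49 over all 84. miR-291a (0.15, SE 0.44, limma adjusted p = 0.779) and miR-292a (0.07, SE 0.38, limma adjusted p = 0.897) were not called. Without WT replicate 2 only 1 hairpin was called lower, miR-293, since miR-295 (limma adjusted p = 0.0623, the highest of a range from 0.00219) and miR-294 lost their calls. miR-294 also lost it without any other library of WT, Ago12_KO or Dgcr8_KO (limma adjusted p = 0.0717 to 0.168, range from 0.00649).

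No shift in the balance of the arms was called for these 6 hairpins in the Microprocessor knockouts. In Dgcr8_KO limma called 0 of 6 in either direction, beside 1.19% of the 84 hairpins lower and 0% higher, while at an unadjusted p under 0.05 it had 1 higher and 0 lower. That 1.19% was 1 hairpin, that of miR-291b itself, whose lower ratio was set by the choice of hairpins. In Drosha_KO limma called 0 of 6 in either direction, beside 5.95% higher and 7.14% lower, while at an unadjusted p under 0.05 it had 0 higher and 1 lower. With a pseudocount of 2, 1 was lower in Drosha_KO, miR-295. miR-293 was at -0.81 (SE 0.40, limma adjusted p = 0.443) in Dgcr8_KO and -0.36 (SE 0.40, limma adjusted p = 0.551) in Drosha_KO, and the falls of miR-293-3p there stood beside falls of the 5p arm, which was at -5.40 (SE 0.36, edgeR adjusted p = 7.17e-07) in Dgcr8_KO and -3.12 (SE 0.33, edgeR adjusted p = 1.28e-05) in Drosha_KO. The median shift was -0.11 over the 6 hairpins and -0.08 over all 84 in Dgcr8_KO, and 0.10 over the 6 and -0.22 over all 84 in Drosha_KO.

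**Figure D4:**
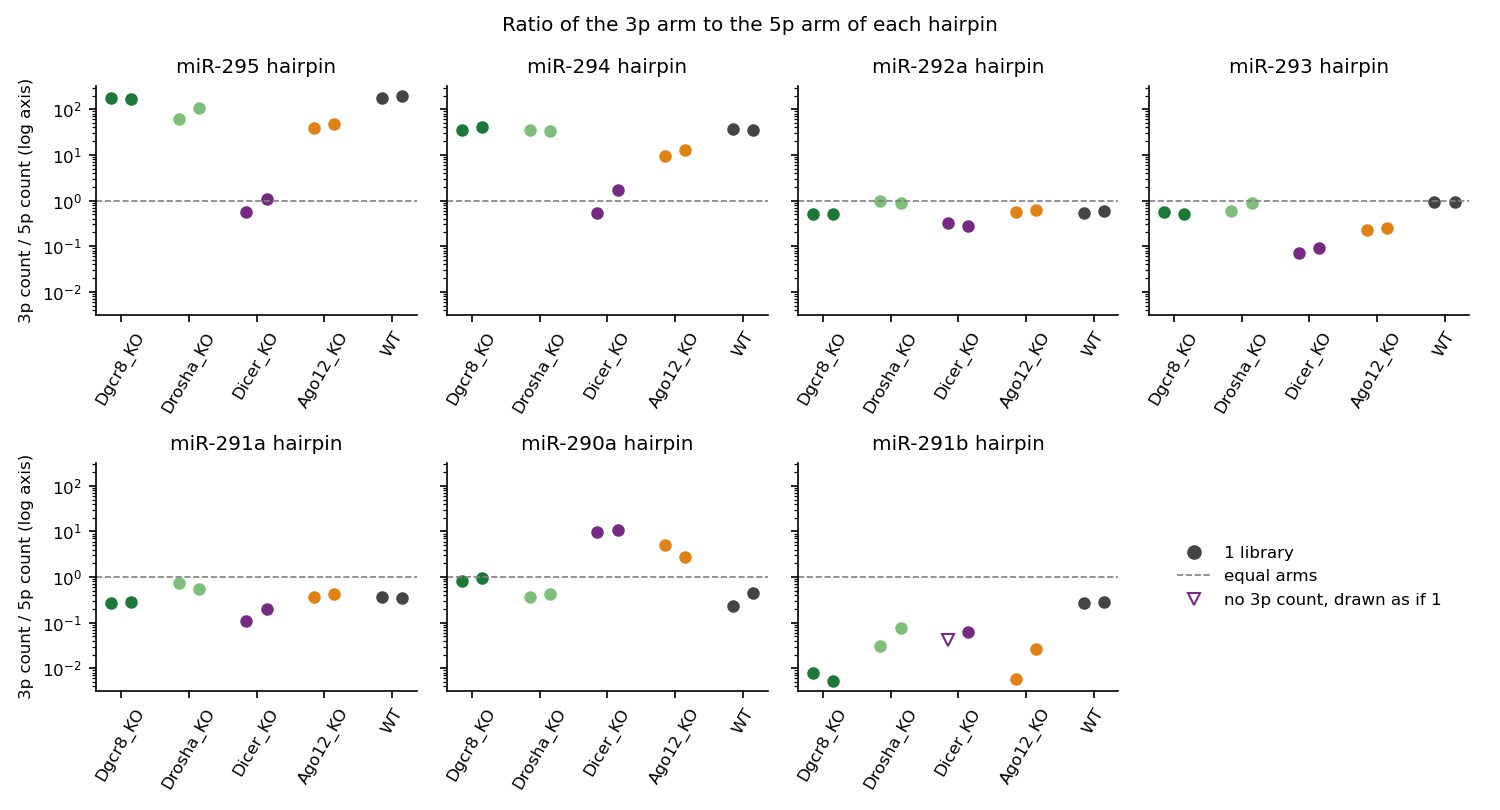
Ratio of 3p to 5p counts of each hairpin per library on a log axis, by group; the dashed line marks equal arms and the open triangle a library with no 3p read, drawn as if it had 1. miR-295 and miR-294 lie near the line in Dicer_KO (0.531 to 1.70) and far above it in WT (35.5 to 192), and miR-290a crosses to above it in Dicer_KO and Ago12_KO.

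Outside the cluster, 1606 of 1889 entries had a mature sequence in the RefSeq table. Of these, 3 share a seed with 1 of the 7 members that had a sequence: miR-302b-3p and miR-302d-3p with AAGUGCU, and miR-350-5p with the AAGUGCA of miR-291b-3p. miR-302b-3p and miR-302d-3p averaged at most 37.4 and 90.8 CPM in any group. miR-302d-3p averaged 2.95 CPM in Dgcr8_KO and 90.8 CPM in Ago12_KO, against 17.1 CPM in WT, and had no read in Drosha_KO or Dicer_KO. In those libraries 3 counts are 66.3 to 80.1 CPM, so having no read does not place it below WT. miR-302a-3p, for which the table gave no mature sequence and whose seed was not compared, averaged at most 33.9 CPM in any group. miR-350-5p averaged 1.22 CPM in Dgcr8_KO, 84.3 CPM in Dicer_KO and 231 CPM in Ago12_KO, against 46.3 CPM in WT. It had no read in Drosha_KO, where 3 counts are 75.9 and 74.4 CPM, above the WT level. In Dicer_KO and Ago12_KO it was thus above miR-291b-3p, and in WT below it.

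The miRNAs whose levels over the 10 libraries ran most like the summed 3p arms were found by the root mean square difference of centred log2 CPM, among 314 candidates with a mean of at least 50 CPM. The nearest were miR-497a-5p (0.43), miR-93-5p (0.45), miR-26a-5p (0.47), miR-31-5p (0.58) and miR-143-3p (0.59), where the median of the candidates was 2.46. By the same measure the members themselves lay from 0.60 (miR-295-3p) to 2.23 (miR-293-3p) from their sum. miR-26a-5p, for instance, averaged 30467 CPM in Dgcr8_KO, 31458 CPM in Drosha_KO, 1523 CPM in Dicer_KO and 24204 CPM in Ago12_KO, against 28150 CPM in WT, so Dicer_KO alone stood well apart. All 10 libraries enter this measure, and miR-143-3p is also on the fibroblast list.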

How the data were processed

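The table the authors deposited holds unnormalised read counts of mature miRNAs in 10 libraries. RNA was extracted with Trizol and 1 ug was made into TruSeq small RNA libraries, per the labels. Bowtie and mm10 are named in the submitters' processing notes. How reads were counted, with which miRBase release and with what rule for multiple matches is not given in the sources used here. Counts were divided by column totals (CPM) and tested with edgeR 4.0.16 in R 4.3.3 (quasi-likelihood, no TMM, all 5 groups in 1 fit, 5 residual degrees of freedom). filterByExpr (minimum count 10, total 15, giving a CPM minimum of 38.54) kept 481 of 1907 entries. Members and hairpins that passed a minimum only through 1 group (miR-291b) enter no call, count or median of the members, a choice made after their values were seen. They stay among all entries and all hairpins tested. SE is the fold change over the square root of F. Arms were tested with limma 3.58.1 on log2((3p + 0.5)/(5p + 0.5)). Both tests were also run on simulated counts with the WT make-up in all groups and the same spread for every entry, apart from entries changed in Dgcr8_KO. Those counts lack the differences in make-up between the real groups, so they do not show how the tests fare on these libraries. Intervals (scipy 1.17.1) and the floor of 3 counts cover counting error only. Members of the cluster, marker lists and tests were chosen with earlier results of these data known. All members are named, with miRNAs of the same seed and the 5 most alike. The 5 fragment-like entries are miR-3963, miR-6240, miR-6236, miR-6239 and miR-1983. Alternatives were other scalings, filters, fits, DESeq2 1.42.0, denominators and pseudocounts, and leaving out each library; a lone sample is then assumed to vary like the other groups. Library totals set the precision: 1 count was 0.424 CPM in the deepest library and 26.7 CPM in the shallowest.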

Additional observations from a re-analysis of the deposited data

How the results depend on the processing

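Of 756 alternative values for single members, 696 kept direction and side of the threshold, 24 lost a call, 14 gained one and 22 changed sign; for arm balance the numbers were 289, 15, 4 and 4 of 312. The cause was not tested, except that no scaling keeps the differences in library totals in the fold changes, and then moved the median of all 481 entries to -3.02, -6.40, -7.52 and -2.88 over WT in Dgcr8_KO, Drosha_KO, Dicer_KO and, last, Ago12_KO (TMM: -0.71, -1.47, -3.06 and -0.66). Part of the alternatives could hardly change a direction. Other filters, the 2-fold minimum and leaving out a library of a group not compared leave the effect itself nearly as it was.

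Without scaling, members called against WT were 0 higher and 5 lower in Dgcr8_KO, 0 and 6 in Drosha_KO, 0 higher in Dicer_KO and 0 higher and 5 lower in Ago12_KO, and in Dgcr8_KO against Drosha_KO 5 higher and 0 lower. miR-290a-3p then stood at -0.38, -2.29, -3.18 and -1.21 in the 4 knockouts, miR-291a-3p at -1.52 in Dgcr8_KO and -3.21 in Drosha_KO, miR-294-3p at -1.78 and -4.17, and miR-292a-3p at -4.67 in Drosha_KO and -2.47 in Ago12_KO. Each of these values of the 4 members lay above the all-entry median of its comparison without scaling, as it did with column totals. In Dgcr8_KO against Drosha_KO miR-290a-3p stood at 1.91, miR-291a-3p at 1.69, miR-292a-3p at 1.64, miR-293-3p at 0.44 and miR-294-3p at 2.39, all 5 below the all-entry median of 3.07, as they were below 0.13 with column totals.

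With DESeq2 size factors in edgeR 1 member was lower in Dgcr8_KO, beside 38.7% of all entries, and 1 with a minimum of 2-fold, beside 39.7%. Under TMM, Ago12_KO had 0 members higher, beside 22.7% of all entries, and miR-292a-3p at -0.23. DESeq2 on column totals gave 2 higher there, beside 31.0%. For Dgcr8_KO against Drosha_KO, 5 members were lower with DESeq2 on column totals, beside 12.9%, and 5 with only the groups compared, beside 17.0%. For Dicer_KO against Drosha_KO, DESeq2 size factors gave 1 higher in edgeR, beside 20.2%, and 1 in DESeq2, beside 23.3%. There miR-290a-3p was at 0.20 in both, and miR-293-3p at 0.96 in both, 0.15 under TMM and 0.67 with totals that leave out fragment-like entries. With a pseudocount of 2 the shift of miR-295 towards the 5p arm was called in Drosha_KO (-1.40).

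Leaving out 1 library leaves a group of 1, so effect sizes alone are given here, for members and hairpins that lost a call. Over WT, log2 fold changes in Dgcr8_KO ran from 0.76 to 0.91 for miR-294-3p and from -0.80 to -0.71 for miR-295-3p. In Ago12_KO miR-290a-3p ran from 1.06 to 2.13 over WT. In Dgcr8_KO over Drosha_KO the range was 1.14 to 1.21 for miR-295-3p, -1.60 to -1.25 for miR-291a-3p and -1.51 to -1.45 for miR-292a-3p. Arm shifts over WT ran from -1.63 to -0.79 for miR-291a in Dicer_KO. In Ago12_KO they ran from -1.92 to -1.49 for miR-294 and from -2.22 to -1.92 for miR-295. Uncalled shifts changed sign, with a range of -0.064 to 0.183 for miR-294 in Dgcr8_KO (lowest without Dgcr8_KO replicate 2), -0.161 to 0.764 for miR-290a in Drosha_KO (lowest without WT replicate 1) and -0.0325 to 0.164 for miR-292a in Ago12_KO (lowest without WT replicate 1).

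With the fragment-like entries taken from the total, the 3p share was 10.9% in Dgcr8_KO and 2.06% in Dicer_KO. With both arms in the sum, miR-295-3p made up 37.2% in Dgcr8_KO, 12.9% in Drosha_KO, 16.7% in Dicer_KO, 31.5% in Ago12_KO and 53.1% in WT.

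The labels give no pairing by replicate number: deviations of same-numbered libraries correlated at -0.05 to 0.12, over 0.1 in 1 of 10 pairs of groups. With the replicate block, the arm balance of miR-291a in Dicer_KO (limma adjusted p = 0.0810) lost its call, and no other call changed. Depth limits Dicer_KO and Drosha_KO most.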
